A study of Mus musculus with 27 samples.

Results

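The genes described here are 40 genes of the cell cycle and of cell proliferation, measured by RNA-seq in the cortex of 5xFAD mice. They were chosen by name, as the rows of the deposited expression table whose symbol is one of the 40, out of 26264 symbols in all, and no measured value entered the choice. The table gives the symbols in lower case, and all 40 were found in it. All mice were female, 16 weeks old, and carried the 5xFAD transgenes on a C57BL/6 background, which include human APP with the Swedish, Florida and London changes and which the Thy1 promoter drives in neurons. No library of mice without the transgenes was used. Each mouse received one stereotaxic microinjection of vehicle, R33 or R55 into the lateral parietal cortex of 1 hemisphere, and a small block of cortex was taken from the injected and from the contralateral hemisphere 24 h later. R55 and R33 are thiophene thioureas made to stabilise the retromer, the complex that sorts cargo out of endosomes, and both were given as 10 mM solutions in a volume of 500 nL. The vehicle held the same DMSO and cyclodextrin in saline without drug.

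There were 27 libraries of 14 mice, namely 8 of 4 vehicle mice, 9 of 5 R33 mice and 10 of 5 R55 mice, and 13 mice gave both hemispheres. The mice are named by the letters of their labels, and their values are always listed in one order, which is J, L, M and AH for vehicle, K, N, O, AD and AE for R33, and P, Q, R, AA and AB for R55. AE gave an injected library only, so lists of contralateral R33 values end with AD. The labels fall into 1-letter names (9 mice) and 2-letter names (5 mice: AA, AB, AD, AE and AH), and only 1 vehicle mouse has a 2-letter name. What the letters stand for is not given, so the series of labels is used below only as a grouping of the names. Values are FPKM, fragments scaled to gene length and library size, as the authors deposited them. Libraries held 15932196 to 38077026 fragments on genes. Markers of excitatory cortical neurons, astrocytes and microglia were present in every library, with summed levels of 1220 to 2090 FPKM, 512 to 1480 FPKM and 300 to 932 FPKM. In blocks of whole tissue, fewer cells of a type and less RNA per cell cannot be told apart.

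A dividing cell first licenses its replication origins by loading the Mcm2-7 helicase, copies its DNA in S phase, and then builds a spindle, attaches the chromosomes at their kinetochores and separates them at anaphase. Transcription of these genes is timed by E2F factors for the S phase set, and by the MuvB complex with B-Myb and FOXM1 for the mitotic set. Neurons of the adult cortex do not divide, and cells that can do so there include microglia, oligodendrocyte precursors, endothelial cells and infiltrating blood cells. Microglia in amyloid models are known to proliferate, and an injection wound is known to bring glial and vascular proliferation.

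By role, the table's mcm2, mcm3, mcm4, mcm5, mcm6, mcm7, pcna, prim1, prim2, rrm2 and tyms make up the replication and S phase group (11 members). They encode the replicative helicase, the sliding clamp, the primase subunits, and enzymes that supply deoxynucleotides. The mitotic cyclins, their kinase and transcription factor are cdk1, ccna2, ccnb1, ccnb2, plk1 and foxm1 (6 members). Spindle checkpoint and anaphase genes are bub1, bub1b, ttk, cdc20 and ube2c (5 members). Kinetochore and chromosomal passenger genes are ndc80, spc25, cenpe, cenpf, aurkb, birc5 and cdca8 (7 members). Cohesin and chromosome structure are covered by cdca5, esco2, top2a and mki67 (4 members), and spindle and cytokinesis by kif11, kif20a, kif23, tpx2, nusap1, prc1 and hmmr (7 members).

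Per length, the members split by role into a measurable and a scarce set. Averaged over the libraries, 10 of the 40 members reached 1 FPKM, all of them in the replication group: Pcna at 24.8 FPKM, Mcm7 at 4.41, Mcm4 at 3.53, Prim2 at 3.41, Prim1 at 3.38, Mcm5 at 2.47, Mcm6 at 2.33, Mcm2 at 2.19, Mcm3 at 2.14 and Rrm2 at 1.14 FPKM. The other 30 members, Tyms and every mitotic gene, lay under 1 FPKM, against 22.6% of all tested genes. The highest of them was Cdca8 with a mean of 0.789 FPKM, and Mki67, the marker of cycling cells, had a mean of 0.238 FPKM. These low values rest on few fragments. The median library held 821 fragments of Pcna and 173 of Mcm2, but 45 of Top2a, 43 of Mki67, 22 of Cdk1 and 6 of Ccnb1. Tests covered the 16760 genes whose average was 0.1 FPKM or more, and 37 of the 40 members were among them. Bub1, Cenpf and Esco2 were not, with means of 0.0978, 0.0868 and 0.0972 FPKM. On GRCm39 in the GENCODE annotation the genes on which the results turn most are Prim2 at chr1:33492888-33709466 (minus strand), Mcm2 at chr6:88860452-88875762 (minus strand), Mcm4 at chr16:15440211-15455264 (minus strand), Top2a at chr11:98883769-98915062 (minus strand) and Mki67 at chr7:135291513-135318299 (minus strand).

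The pattern that ran through all groups of members was a small number of libraries. The injected hemisphere of mouse AA (R55) had the highest value of all 27 libraries for 32 of the 40 members, and the injected hemisphere of mouse AD (R33) had it for the other 8, which were Mcm2, Mcm5, Pcna, Prim1, Prim2, Tyms, Cdca8 and Spc25. The injected hemisphere of mouse AB (R55) followed. For 19 members all 3 of these libraries lay above each of the other 24, for 16 members 2 of them did, and for Ccnb1, Kif11, Kif23, Cenpe and Cenpf 1 did. Among the other 24 libraries the contralateral hemisphere of AA was highest for 19 members. These libraries were picked out after their values were seen, so the counts describe them and test nothing.

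On the log2(FPKM + 0.1) scale, with each gene set to its median library, the median of the 40 members was 1.62 in AA injected, 1.06 in AD injected, 0.70 in AB injected and 0.55 in AA contralateral. In the other 23 libraries it ran from -0.31 to 0.32, both ends being the contralateral and the injected hemisphere of the vehicle mouse L. The median of all tested genes was 0.006, 0.084, -0.004 and 0.058 in AA injected, AD injected, AB injected and AA contralateral. In AA injected 33 members were more than 1 above their median library, where 3.18% of all tested genes were. AD injected had 23 such members and AB injected 8, where 4.12% and 1.35% of all tested genes were as high.

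**Figure D1:**
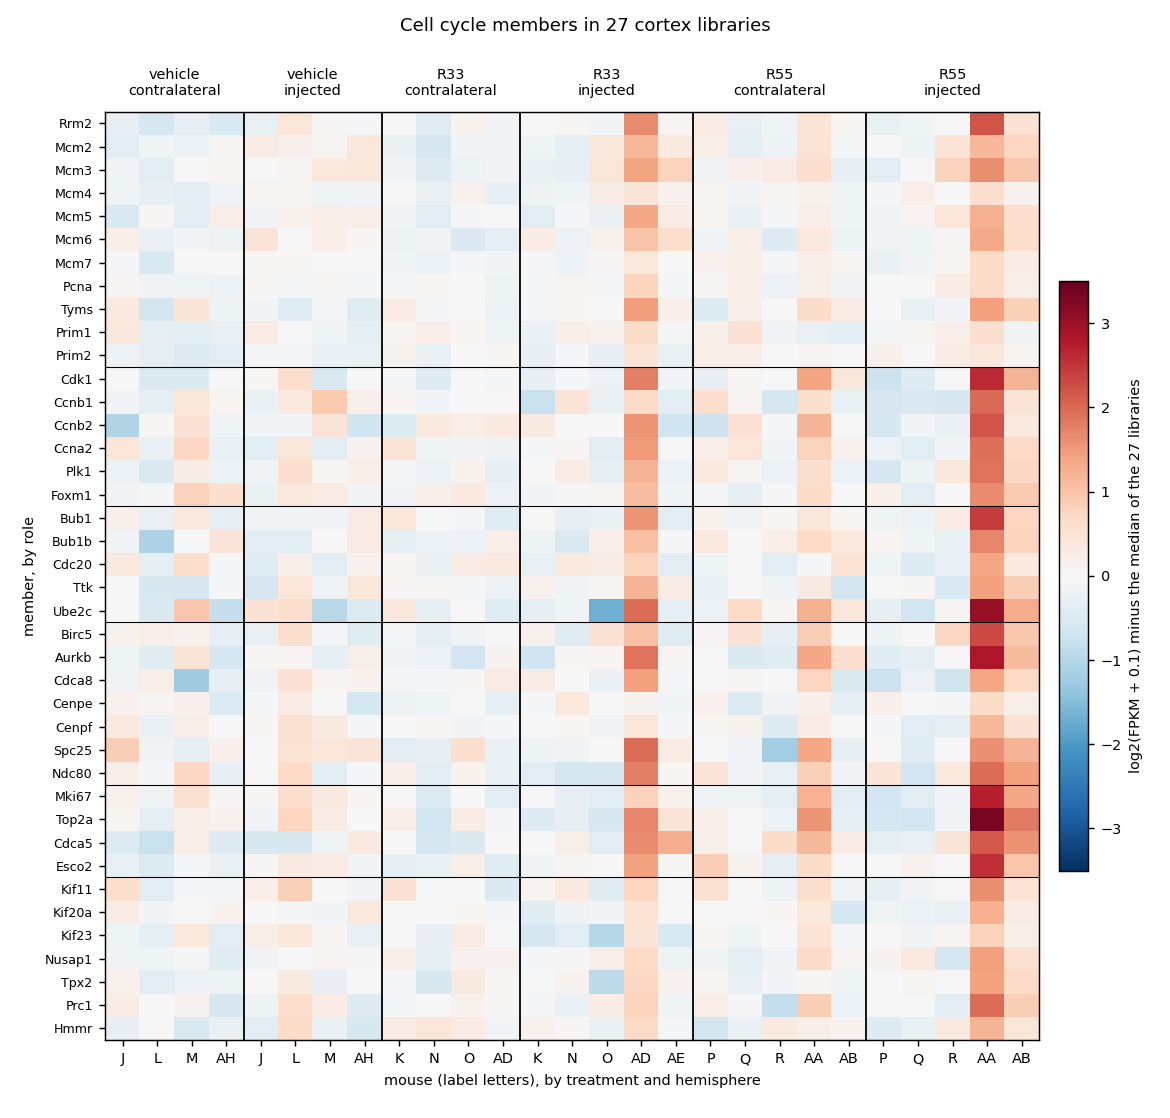
Heat map of the 40 members (rows, ordered by role and separated by thin lines) in the 27 libraries (columns, by treatment and hemisphere, 2-letter mice last in each block). Colour gives log2(FPKM + 0.1) minus the gene's median over the libraries. The columns of AD injected, AA contralateral, AA injected and AB injected are red over most rows, while the remaining columns stay near 0.

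The widest ratios to the other libraries were those of mitotic members, though mitotic and replication members overlapped. Over the 24 other libraries the median of Top2a, the topoisomerase that untangles sister chromatids, was 0.302 FPKM, and AA, AD and AB injected stood at 13.3, 4.14 and 4.5 times that value. For Mki67 the ratios were 10.7, 2.34 and 3.77, for Cdk1 9.27, 4.93 and 3.09, for Aurkb, the kinase of the chromosomal passenger complex, 11.4, 5.72 and 3.01, and for Ube2c, the ubiquitin-conjugating enzyme of the anaphase-promoting complex, 11.8, 5.34 and 3.28. Bub1 had the widest ratio in AA injected, 15.9, and Prim2 the narrowest, 1.39. Among replication members the ratios in AA, AD and AB injected were 2.4, 2.44 and 1.8 for Mcm2, 5.26, 3.58 and 1.55 for Rrm2 and 1.62, 1.75 and 1.17 for Pcna. The mitotic members Cenpe, at 1.9, 1.16 and 1.25, and Kif23, at 2.07, 1.53 and 1.25, lay under Rrm2 in the same libraries. With each gene set to its median library, AD injected had a log2 median of 1.0 for replication and 1.081 for mitotic members. For Mki67 counting error was small beside its ratios: it rested on 349 fragments in AA injected (95% exact Poisson interval 313 to 388), 130 in AA contralateral (109 to 154), 189 in AB injected (163 to 218) and 27 in AB contralateral (17.8 to 39.3). It weighed more on scarcer genes. Ube2c rested on 82 fragments in AA injected (65.2 to 102) and 35 in AB injected (24.4 to 48.7). Contralaterally it rested on 14 in AB (7.65 to 23.5) and 7 in AD (2.81 to 14.4). Such intervals cover counting error only.

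Top2a, Mki67, Cdk1 and Ube2c are given in every library, having been chosen after their values were seen. Top2a stood at 0.332, 0.232, 0.385 and 0.36 FPKM in the contralateral and at 0.29, 0.591, 0.397 and 0.311 FPKM in the injected hemisphere of the vehicle mice. Top2a after R33 read 0.385, 0.162, 0.399 and 0.293 FPKM contralaterally and 0.202, 0.238, 0.18, 1.25 and 0.467 FPKM on the injected side. Top2a after R55 read 0.372, 0.314, 0.259, 1.1 and 0.228 FPKM contralaterally and 0.169, 0.161, 0.285, 4.01 and 1.36 FPKM on the injected side. The values of AA, AB and AD injected lay above all others, AA contralateral at 1.1 FPKM followed, and outside these 4 libraries the treatments overlapped. Mki67 stood at 0.183, 0.136, 0.274 and 0.166 FPKM in the contralateral and at 0.163, 0.287, 0.22 and 0.169 FPKM in the injected hemisphere of the vehicle mice. Mki67 after R33 read 0.157, 0.0837, 0.155 and 0.0977 FPKM contralaterally and 0.157, 0.112, 0.0983, 0.347 and 0.187 FPKM on the injected side. Mki67 after R55 read 0.131, 0.131, 0.106, 0.503 and 0.0997 FPKM contralaterally and 0.0629, 0.0995, 0.141, 1.59 and 0.558 FPKM on the injected side. AA injected, AB injected and AA contralateral were the 3 highest libraries, and the lowest of all was the injected side of the R55 mouse P. Cdk1 stood at 0.191, 0.103, 0.101 and 0.192 FPKM in the contralateral and at 0.203, 0.337, 0.0997 and 0.191 FPKM in the injected hemisphere of the vehicle mice. Cdk1 after R33 read 0.182, 0.11, 0.188 and 0.176 FPKM contralaterally and 0.137, 0.177, 0.148, 0.882 and 0.172 FPKM on the injected side. Cdk1 after R55 read 0.134, 0.203, 0.188, 0.646 and 0.282 FPKM contralaterally and 0.0729, 0.111, 0.188, 1.66 and 0.554 FPKM on the injected side. Cdk1, the kinase that drives entry into mitosis, was again highest in AA injected and AD injected, with AA contralateral ahead of AB injected. Ube2c stood at 0.404, 0.254, 0.876 and 0.179 FPKM in the contralateral and at 0.61, 0.649, 0.155 and 0.255 FPKM in the injected hemisphere of the vehicle mice. Ube2c after R33 read 0.555, 0.302, 0.399 and 0.274 FPKM contralaterally and 0.302, 0.349, 0.0532, 1.82 and 0.296 FPKM on the injected side. Ube2c after R55 read 0.333, 0.711, 0.42, 1.09 and 0.559 FPKM contralaterally and 0.302, 0.215, 0.419, 4.04 and 1.12 FPKM on the injected side. Ube2c rests on 1 fragment in its lowest library and 82 in its highest, and its order at the top was AA, AD and AB injected, then AA contralateral.

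**Figure D2:**
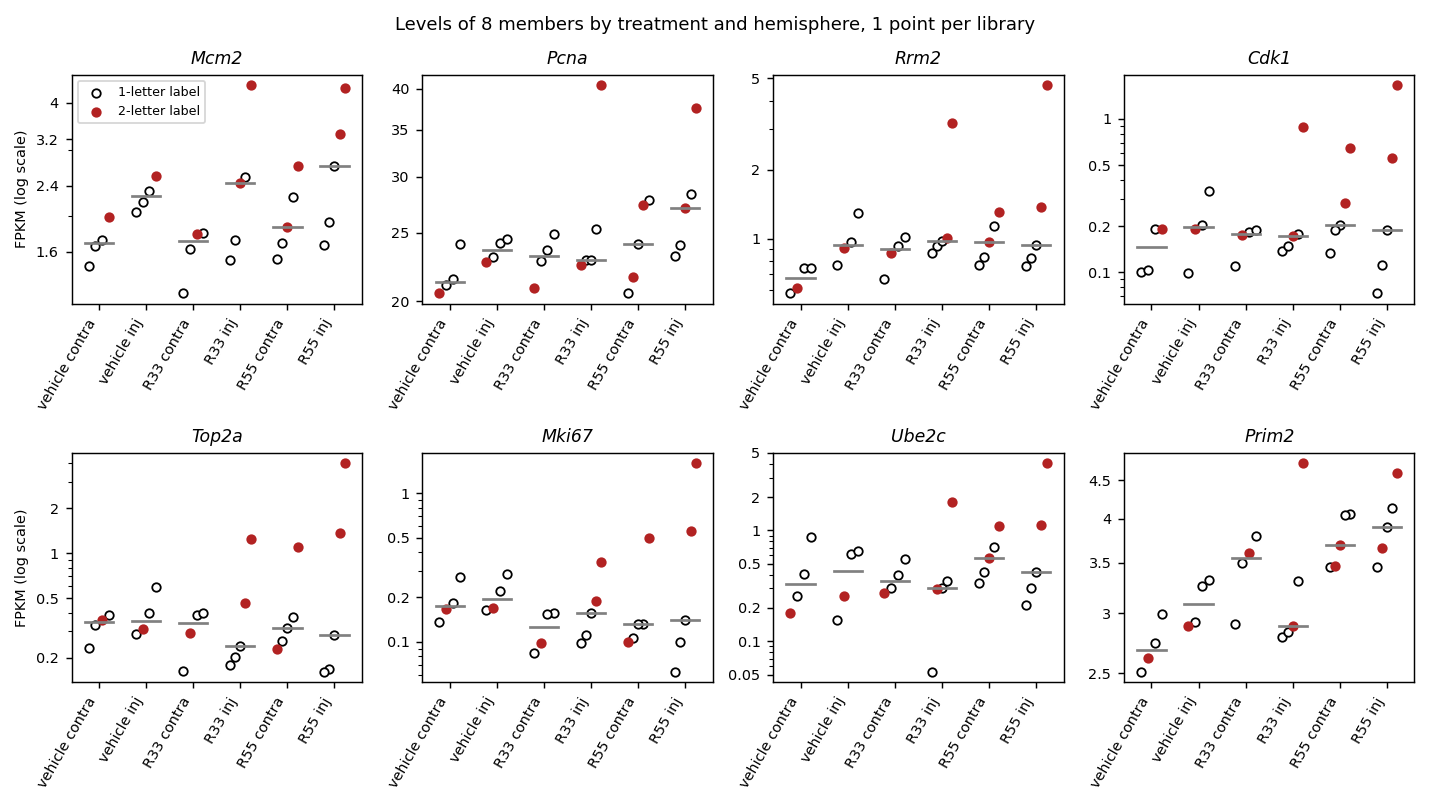
FPKM of Mcm2, Pcna, Rrm2, Cdk1, Top2a, Mki67, Ube2c and Prim2 in the 6 groups of treatment and hemisphere, on log axes, with 1 point per library, filled for 2-letter mice and open for 1-letter mice, and a grey bar at the group median. The highest points of all panels are filled and belong to the injected R33 and R55 groups, and in the Prim2 panel all R55 points lie above all vehicle points.

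The promoters of these genes were searched for the motifs of the cell cycle. The members were chosen by name as cell cycle genes, so larger shares than over all genes follow from that choice. The shares therefore test nothing about why the members moved together between libraries. RefSeq windows on GRCm38.p6, from 250 bases before to 50 bases after the start, were at hand for 32 of the 40 members, all except Ccna2, Aurkb, Mcm4, Kif20a, Tpx2, Esco2, Foxm1 and Prim2. The CHR element, which MuvB binds and which was searched as TTTGAA or TTCGAA on both strands, was in 21 of 32 members and in 21.7% of the 27025 genes with a window. The CCAAT box was in 27 of 32 members and in 41.1% of all genes. E2F sites, searched as the words TTTCCCGC, TTTCGCGC, TTTGCCGC and TTTGGCGC on both strands, were in Cdk1, Mcm3, Mcm5, Mcm6 and Mcm7, which is 5 of 32 members, and in 2.6% of all genes. All 5 spindle checkpoint and anaphase genes held a CHR, while 2 of the 9 replication members with a window, Mcm2 and Mcm7, did. A match is a description of the letters and not a shown site.

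The stretches that end at the start of the mitotic genes Top2a, Cdk1 and Ube2c and of the replication gene Mcm6 are printed as picked examples, which do not stand for their groups. They are written 5′ to 3′ on the gene's strand with every CHR, CCAAT and E2F word in capitals. They lie at chr11:99024190-99024389 (minus strand), chr10:69352913-69353062 (minus), chr2:164769769-164769928 (plus) and chr1:128359706-128359905 (minus) of GRCm38.p6.
Top2a: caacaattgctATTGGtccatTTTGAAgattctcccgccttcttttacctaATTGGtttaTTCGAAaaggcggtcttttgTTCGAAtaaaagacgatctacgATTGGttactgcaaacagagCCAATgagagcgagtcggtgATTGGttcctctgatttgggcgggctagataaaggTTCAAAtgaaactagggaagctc
Cdk1: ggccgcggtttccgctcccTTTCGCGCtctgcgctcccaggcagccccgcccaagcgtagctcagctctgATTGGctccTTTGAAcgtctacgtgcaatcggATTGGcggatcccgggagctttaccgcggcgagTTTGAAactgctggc
Ube2c: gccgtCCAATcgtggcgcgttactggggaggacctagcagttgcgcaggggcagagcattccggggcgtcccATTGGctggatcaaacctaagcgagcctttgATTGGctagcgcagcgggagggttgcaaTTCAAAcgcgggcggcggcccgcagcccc
Mcm6: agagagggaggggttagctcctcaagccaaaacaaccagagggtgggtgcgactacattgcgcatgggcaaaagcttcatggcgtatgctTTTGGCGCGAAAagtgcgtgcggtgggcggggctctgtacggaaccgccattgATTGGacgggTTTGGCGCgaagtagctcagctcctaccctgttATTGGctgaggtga
Top2a holds 4 CHR words and 5 CCAAT words in this stretch, Cdk1 2 CHR, 2 CCAAT and 1 E2F, and Ube2c 1 CHR and 3 CCAAT. Mcm6 holds no CHR, 2 CCAAT and 3 E2F words, of which a pair on opposite strands overlaps.

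The comparison of R55 with vehicle asks which genes the drug changed, in a fit with treatment and hemisphere as separate factors. No member passed an adjusted p of 0.05 (limma on log2(FPKM + 0.1), Benjamini-Hochberg over all tested genes), where 0.00597% of all tested genes did, and limma voom on the recovered fragments called 0 members as well. At an unadjusted p under 0.05, 4 of 37 members were higher and none was lower, against 4.27% of all tested genes higher and 3.65% lower, and the voom count was also 4. The 4 were Prim2, Cdca5, Mcm4 and Bub1b. The log2 fold change was above 0 for 35 of 37 members, with a median of 0.245 beside 0.025 over all tested genes. By role, the medians were 0.22 for replication, 0.28 for mitotic cyclins and kinase, 0.39 for the spindle checkpoint, 0.26 for kinetochores, 0.36 for chromosome structure and 0.23 for spindle and cytokinesis. With only AA left out the median was 0.085. Without mice AA, AB and AD, an alternative chosen after seeing the data, the median of the members was -0.02 and 15 of 37 were above 0. These mice were picked for their high values and all had received a drug, so lower drug values without them follow from that choice and test nothing, here and below. The 1-letter mice, a split by label, leave out the same mice along with AE and AH, and there the median was -0.09 and 14 of 37 were above 0.

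Prim2, the large primase subunit that starts each new DNA strand, had the smallest adjusted p of the members in this comparison. Prim2 stood at 2.99, 2.74, 2.51 and 2.62 FPKM in the contralateral and at 3.26, 3.32, 2.92 and 2.89 FPKM in the injected hemisphere of the vehicle mice. Prim2 after R33 read 3.8, 2.9, 3.5 and 3.6 FPKM contralaterally and 2.79, 3.31, 2.83, 4.74 and 2.89 FPKM on the injected side. Prim2 after R55 read 4.06, 4.05, 3.45, 3.69 and 3.46 FPKM contralaterally and 3.9, 3.45, 4.14, 4.6 and 3.66 FPKM on the injected side. All 10 R55 libraries, from 3.45 to 4.6 FPKM, lay above all 8 vehicle libraries, from 2.51 to 3.32 FPKM, and R33 libraries overlapped both. As means of the hemispheres, the R55 mice averaged 3.85 ± 0.225 FPKM (SD, n = 5), the R33 mice 3.32 ± 0.495 (SD, n = 5) and the vehicle mice 2.91 ± 0.201 (SD, n = 4). The log2 fold change of R55 over vehicle was 0.39 (SE 0.0883, limma adjusted p = 0.182), which is 1.31-fold. It was 0.39 (SE 0.0864, adjusted p = 0.123) without AA, AB and AD and 0.37 (SE 0.0953, adjusted p = 0.288) within 1-letter mice. With only mouse AD left out Prim2 passed the threshold (log2 fold change 0.39, adjusted p = 0.0202), and with the correlation within mice modelled its adjusted p was 0.919.

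Mcm4, a helicase subunit, was the other member whose mice did not overlap. Mcm4 stood at 3.12, 2.8, 2.66 and 3.17 FPKM in the contralateral and at 3.74, 3.72, 3.1 and 3.27 FPKM in the injected hemisphere of the vehicle mice. Mcm4 after R33 read 3.5, 2.87, 3.86 and 2.85 FPKM contralaterally and 3.03, 3.14, 4.21, 4.8 and 3.87 FPKM on the injected side. Mcm4 after R55 read 3.67, 3.22, 3.74, 3.87 and 3.09 FPKM contralaterally and 3.32, 4.1, 3.47, 5.3 and 3.88 FPKM on the injected side. The R55 mice averaged 3.77 ± 0.463 FPKM (SD, n = 5) and lay above the vehicle mice, which averaged 3.2 ± 0.23 (SD, n = 4), with R33 at 3.6 ± 0.442 (SD, n = 5). The log2 fold change was 0.22 (SE 0.0936, limma adjusted p = 0.606). Every R55 mouse lay above every vehicle mouse for these 2 of 37 members, Prim2 and Mcm4, against 0.913% of all tested genes, and every R55 mouse lay below every vehicle mouse for none, against 1.26%.

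Cdca5, which encodes sororin, the protector of sister chromatid cohesion, had the largest log2 fold change among the members, 0.88 (SE 0.314, limma adjusted p = 0.573). The paper, with DESeq2, names Cdca5 as differentially expressed both for R55 against vehicle and between the hemispheres. Cdca5 stood at 0.0395, 0.0138, 0.132 and 0.0438 FPKM in the contralateral and at 0.0331, 0.0334, 0.0758 and 0.146 FPKM in the injected hemisphere of the vehicle mice. Cdca5 after R33 read 0.0957, 0.0295, 0.039 and 0.0956 FPKM contralaterally and 0.0921, 0.124, 0.052, 0.517 and 0.371 FPKM on the injected side. Cdca5 after R55 read 0.122, 0.0993, 0.205, 0.328 and 0.137 FPKM contralaterally and 0.0554, 0.0631, 0.167, 0.771 and 0.484 FPKM on the injected side. Its high libraries were AA, AD and AB injected, AE injected and AA contralateral, and its lowest library held 1 fragment of it. The fold change was 0.42 on the log2 scale (SE 0.268) without AA, AB and AD. Bub1b stood at 0.431, 0.165, 0.462 and 0.671 FPKM in the contralateral and at 0.327, 0.329, 0.473 and 0.594 FPKM in the injected hemisphere of the vehicle mice. Bub1b after R33 read 0.348, 0.391, 0.385 and 0.566 FPKM contralaterally and 0.402, 0.298, 0.567, 1.06 and 0.45 FPKM on the injected side. Bub1b after R55 read 0.613, 0.464, 0.552, 0.819 and 0.628 FPKM contralaterally and 0.508, 0.404, 0.367, 1.75 and 0.875 FPKM on the injected side. Bub1b, the checkpoint kinase-like protein that holds back anaphase, overlapped between treatments at a log2 fold change of 0.53 (SE 0.238, limma adjusted p = 0.606). Mki67 had a log2 fold change of 0.12 (SE 0.323) in all mice and of -0.54 (SE 0.175, adjusted p = 0.384) within 1-letter mice, where AA and AB are left out too. For Top2a the values were 0.36 (SE 0.412) and -0.38 (SE 0.217).

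R33 against vehicle showed less. The limma fit called no member at an adjusted p of 0.05, where 0.0% of all tested genes were called, and voom called 0 as well. Of 37 members, 1, Prim2, was higher at an unadjusted p under 0.05 and none was lower, against 3.07% and 2.46% of all tested genes, and with voom it was 0. Prim2 had a log2 fold change of 0.19 (SE 0.0906, adjusted p = 0.88). The median of the members was 0.05 beside 0.02 for all tested genes, and it was -0.06 without AA, AB and AD. Mouse means did not separate any member, where every R33 mouse lay above every vehicle mouse for 0.352% and below for 0.388% of all tested genes. The vehicle mice are the same in the R55 and R33 comparisons.

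R55 and R33 were given at the same dose and time, so their readouts can be compared directly, as 1 pair of compounds. No member was called (limma adjusted p, 0.0% of all tested genes called, and 0 members with voom). At an unadjusted p under 0.05, 1 member was higher with R55, Prim2, and none was lower, against 0.913% and 1.07% of all tested genes, and voom gave 2. Prim2 was 0.20 higher with R55 on the log2 scale (95% interval 0.03 to 0.38, adjusted p = 1.0). The median over members was 0.17 beside 0.004 for all tested genes, and -0.03 without AA, AB and AD. The 95% interval of the difference included 0 for 36 of 37 members. It was narrow for some abundant genes, -0.12 to 0.27 for Pcna, -0.10 to 0.28 for Mcm4 and -0.29 to 0.23 for Prim1, and wide for some mitotic genes, -0.38 to 1.26 for Top2a, -0.24 to 1.05 for Mki67 and -0.192 to 1.525 for Ube2c. The roles overlapped, with -0.20 to 0.37 for the mitotic gene Cenpe and -0.19 to 0.69 for the replication gene Mcm3. For 7 members the interval reached a log2 difference of 1. These intervals take the hemispheres of a mouse as independent and are therefore too narrow. With the correlation within mice modelled, no member had an unadjusted p under 0.05, and Prim2 differed by 0.21 (SE 0.103, adjusted p = 1.0).

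The comparison of the injected with the contralateral hemisphere asks what the injection did, over all treatments. The limma fit called no member at an adjusted p of 0.05 and 0.0% of all tested genes, and voom called 0 members. At an unadjusted p under 0.05, 8 of 37 members were higher on the injected side and none was lower, against 1.66% of all tested genes higher and 2.43% lower, and voom also gave 8. Of these 8, 7 were replication genes: Mcm2, Mcm3, Mcm4, Mcm5, Mcm6, Rrm2 and Pcna. The remaining gene was Ttk, the checkpoint kinase Mps1. The log2 fold change was above 0 for 36 of 37 members, with a median of 0.20 beside -0.001 over all tested genes. By role, the medians were 0.199 for replication, 0.252 for kinetochores and 0.325 for chromosome structure. They were 0.126 for mitotic cyclins and kinase, 0.111 for the spindle checkpoint and 0.175 for spindle and cytokinesis. With the mouse as a block, 9 members were higher at an unadjusted p under 0.05, where 3.27% of all tested genes were, and 37 of 37 were above 0, yet none was called, the smallest adjusted p being 0.351 for Mcm2.

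Mcm2, part of the helicase motor, gave the steadiest difference. Mcm2 stood at 1.47, 1.72, 1.66 and 1.98 FPKM in the contralateral and at 2.32, 2.18, 2.04 and 2.55 FPKM in the injected hemisphere of the vehicle mice. Mcm2 after R33 read 1.63, 1.24, 1.8 and 1.79 FPKM contralaterally and 1.72, 1.52, 2.54, 4.46 and 2.44 FPKM on the injected side. Mcm2 after R55 read 2.24, 1.53, 1.69, 2.71 and 1.86 FPKM contralaterally and 1.92, 1.67, 2.72, 4.39 and 3.3 FPKM on the injected side. The injected side was higher in 12 of 13 mice, all except P, and the log2 fold change was 0.44 (SE 0.14, limma adjusted p = 1.0). In the vehicle mice alone, injected libraries averaged 2.27 ± 0.217 FPKM (SD, n = 4) and contralateral libraries 1.71 ± 0.21 (SD, n = 4). Without AA, AB and AD the log2 fold change was 0.32 (SE 0.109, adjusted p = 1.0), and within 1-letter mice it was 0.29 (SE 0.117, adjusted p = 0.978). Mcm2 and Nusap1, a spindle protein that was higher in 11 of 13 mice, were the 2 members of 37 with the injected side higher in at least 11 mice, against 1.54% of all tested genes. No member was lower in as many mice, against 1.52%.

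The other subunits of the helicase behaved less evenly. Mcm3 stood at 1.6, 1.3, 1.72 and 1.8 FPKM in the contralateral and at 1.71, 1.79, 2.27 and 2.3 FPKM in the injected hemisphere of the vehicle mice. Mcm3 after R33 read 1.59, 1.22, 1.52 and 1.61 FPKM contralaterally and 1.44, 1.39, 2.34, 4.68 and 3.04 FPKM on the injected side. Mcm3 after R55 read 1.57, 1.96, 2.14, 2.56 and 1.4 FPKM contralaterally and 1.27, 1.69, 3.08, 5.53 and 3.39 FPKM on the injected side. Mcm3 was higher on the injected side in 10 of 13 mice, with a log2 fold change of 0.47 (SE 0.18, limma adjusted p = 1.0), and was highest in AA and AD injected. Mcm5 stood at 1.49, 2.31, 1.66 and 2.6 FPKM in the contralateral and at 2.04, 2.47, 2.59 and 2.59 FPKM in the injected hemisphere of the vehicle mice. Mcm5 after R33 read 2.01, 1.67, 2.13 and 2.2 FPKM contralaterally and 1.64, 2.14, 1.87, 5.78 and 2.72 FPKM on the injected side. Mcm5 after R55 read 2.34, 1.84, 2.11, 2.59 and 1.98 FPKM contralaterally and 2.02, 2.37, 3, 5.32 and 3.34 FPKM on the injected side. Mcm5 was higher in 9 of 13 mice with a log2 fold change of 0.37 (SE 0.149, adjusted p = 1.0). Mcm6 stood at 2.45, 1.73, 1.91 and 1.8 FPKM in the contralateral and at 2.86, 2.06, 2.45 and 2.18 FPKM in the injected hemisphere of the vehicle mice. Mcm6 after R33 read 1.82, 1.9, 1.43 and 1.64 FPKM contralaterally and 2.51, 1.76, 2.28, 4.22 and 3.2 FPKM on the injected side. Mcm6 after R55 read 1.92, 2.39, 1.47, 2.68 and 1.8 FPKM contralaterally and 1.87, 1.84, 2.11, 5.3 and 3.2 FPKM on the injected side. Mcm6 was higher in 10 of 13 mice with a log2 fold change of 0.425 (SE 0.142, adjusted p = 1.0), and 0.26 (SE 0.109) without AA, AB and AD. Mcm7 stood at 4.1, 2.96, 4.32 and 4.3 FPKM in the contralateral and at 4.54, 4.52, 4.31 and 4.33 FPKM in the injected hemisphere of the vehicle mice. Mcm7 after R33 read 3.9, 3.73, 4.17 and 3.99 FPKM contralaterally and 4.11, 3.75, 4.47, 5.59 and 4.23 FPKM on the injected side. Mcm7 after R55 read 4.78, 4.94, 4.12, 5.09 and 4.53 FPKM contralaterally and 3.61, 4.01, 4.59, 6.74 and 5.23 FPKM on the injected side. Mcm7 was higher in 10 of 13 mice by small amounts, with a log2 fold change of 0.11 (SE 0.0784, adjusted p = 1.0), and its highest library was AA injected at 6.74 FPKM.

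Clamp, primase and nucleotide supply completed the replication group. Pcna stood at 24.1, 21.5, 21.1 and 20.5 FPKM in the contralateral and at 24.2, 23.1, 24.5 and 22.7 FPKM in the injected hemisphere of the vehicle mice. Pcna after R33 read 22.8, 24.9, 23.6 and 20.9 FPKM contralaterally and 22.9, 25.3, 22.9, 40.5 and 22.5 FPKM on the injected side. Pcna after R55 read 24.1, 27.8, 20.5, 27.4 and 21.6 FPKM contralaterally and 23.2, 24, 28.4, 37.6 and 27.1 FPKM on the injected side. Pcna, the clamp that also serves DNA repair, was the most abundant member and was higher on the injected side in 10 of 13 mice, with a log2 fold change of 0.17 (SE 0.0798, limma adjusted p = 1.0). Rrm2 stood at 0.743, 0.578, 0.749 and 0.613 FPKM in the contralateral and at 0.767, 1.3, 0.972 and 0.909 FPKM in the injected hemisphere of the vehicle mice. Rrm2 after R33 read 0.935, 0.671, 1.02 and 0.869 FPKM contralaterally and 0.934, 0.977, 0.863, 3.18 and 1.01 FPKM on the injected side. Rrm2 after R55 read 1.14, 0.767, 0.831, 1.31 and 0.972 FPKM contralaterally and 0.759, 0.828, 0.943, 4.68 and 1.38 FPKM on the injected side. Rrm2, the S phase subunit of ribonucleotide reductase, was higher on the injected side in 10 of 13 mice with a log2 fold change of 0.44 (SE 0.205, adjusted p = 1.0), and AA and AD injected stood apart from the other injected libraries. Prim1 stood at 4.32, 2.55, 2.46 and 2.69 FPKM in the contralateral and at 3.95, 3.24, 2.89 and 2.61 FPKM in the injected hemisphere of the vehicle mice. Prim1 after R33 read 3.37, 3.85, 3.37 and 2.92 FPKM contralaterally and 2.75, 3.76, 3.62, 5.14 and 3.08 FPKM on the injected side. Prim1 after R55 read 3.67, 4.61, 2.96, 2.7 and 2.5 FPKM contralaterally and 3.15, 3.48, 3.79, 4.82 and 2.99 FPKM on the injected side. Prim1, the catalytic primase subunit, overlapped between hemispheres and treatments, and behind AA and AD injected its highest libraries were Q contralateral (R55) and both hemispheres of J (vehicle).

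The difference between hemispheres was then taken in each mouse. The injected side was higher for 40 of 40 members in AA (R55) and in AD (R33), for 39 in AB (R55) and for 39 in L (vehicle), with median log2 differences of 1.03, 1.225, 0.73 and 0.59. In the same mice 44.5%, 59.3%, 46.7% and 57.0% of all tested genes were higher on the injected side. In the other 9 mice 7 to 27 members were higher, from 7 in P to 27 in AH, and the medians ran from -0.22 in Q to 0.17 in N. The remaining R55 mice, P, Q and R, had 7, 12 and 26 members higher, and the remaining R33 mice, K, N and O, had 15, 26 and 13. Single members were higher on the injected side by more than 1 on the log2 scale 24 times in AA, 24 times in AD, 9 times in AB, 6 times in L, 2 times in R and 1 time in M. Of all tested genes, 2.21%, 4.82%, 1.5%, 3.51%, 1.07% and 2.11% were that much higher, in the same order. The count in M is near that share. Chromosome structure genes (Top2a, Mki67, Cdca5 and Esco2) had the widest medians in those mice, 1.63 in AA, 1.72 in AD and 1.51 in AB, and the replication group had 0.79, 1.27 and 0.46.

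**Figure D3:**
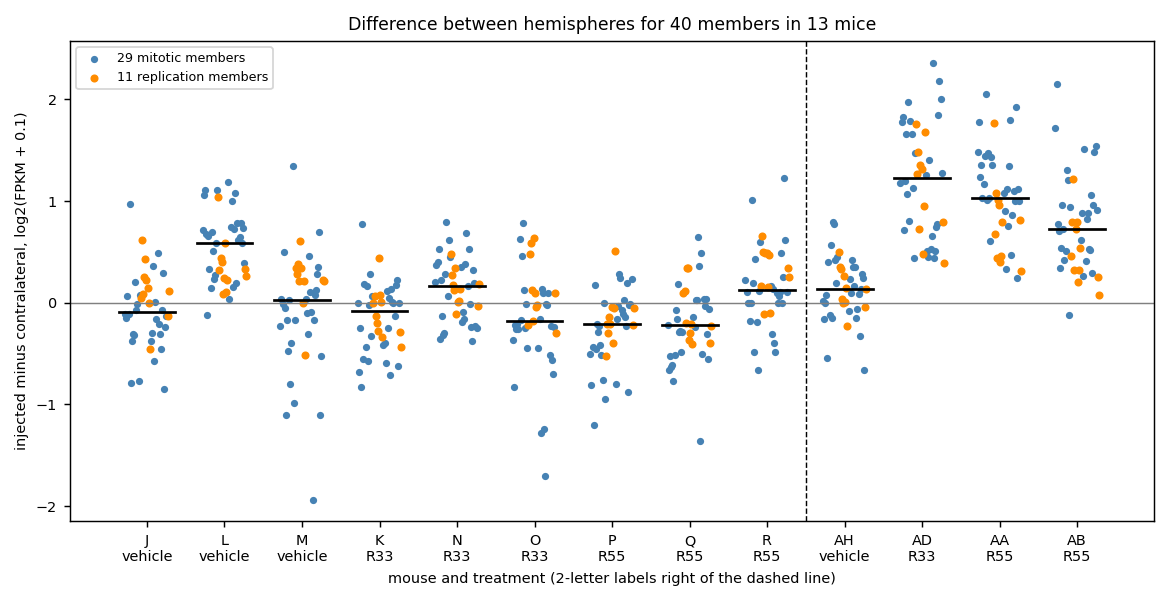
Injected minus contralateral difference in log2(FPKM + 0.1) for the 40 members (points, 11 replication and 29 mitotic members in different colours) in the 13 mice with both hemispheres, grouped by label series and treatment, with a bar at the median of the 40. AD, AA, AB and L lie above 0 with almost all points, and the other 9 mice straddle 0.

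AA, AB and AD all have 2-letter names, so the comparison was repeated within each series of labels. Within the 1-letter mice 1 member, Mcm2, was higher and 1, Kif20a, was lower at an unadjusted p under 0.05, against 1.95% of all tested genes higher and 2.23% lower, and the median of the members was 0.015. Within the 2-letter mice 10 members were higher and none was lower, against 3.22% higher, with a median of 0.63 and 37 of 37 above 0. The limma fits called no member in either series. A test of the difference between the series, added after the data were seen, also called no member (limma adjusted p, where 0.00597% of all tested genes were called, and 0 members with voom). In it 13 of 37 members had a larger difference in 2-letter mice at an unadjusted p under 0.05 and none a smaller one, against 2.31% of all tested genes larger, and voom gave 9. With the mouse as a block the count was 27, against 4.96%, and the smallest limma adjusted p was 0.155, for Kif20a, a cytokinesis kinesin, at a log2 difference of 0.83 (SE 0.168). AA, AB and AD make up most of the 2-letter mice with both hemispheres and had been seen to be high before this test was added. Its counts of 13, 9 and 27 follow from that and test nothing.

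The series of labels cannot be told apart from the single mice that carry it. AE, the other 2-letter R33 mouse, had a median of -0.03 over the members in its injected library, and AH, the 2-letter vehicle mouse, had a median difference of 0.13. With AA, AB and AD left out, 2 members, Mcm2 and Mcm6, were higher on the injected side at an unadjusted p under 0.05, against 1.45% of all tested genes, and the median was 0.03.

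**Figure D4:**
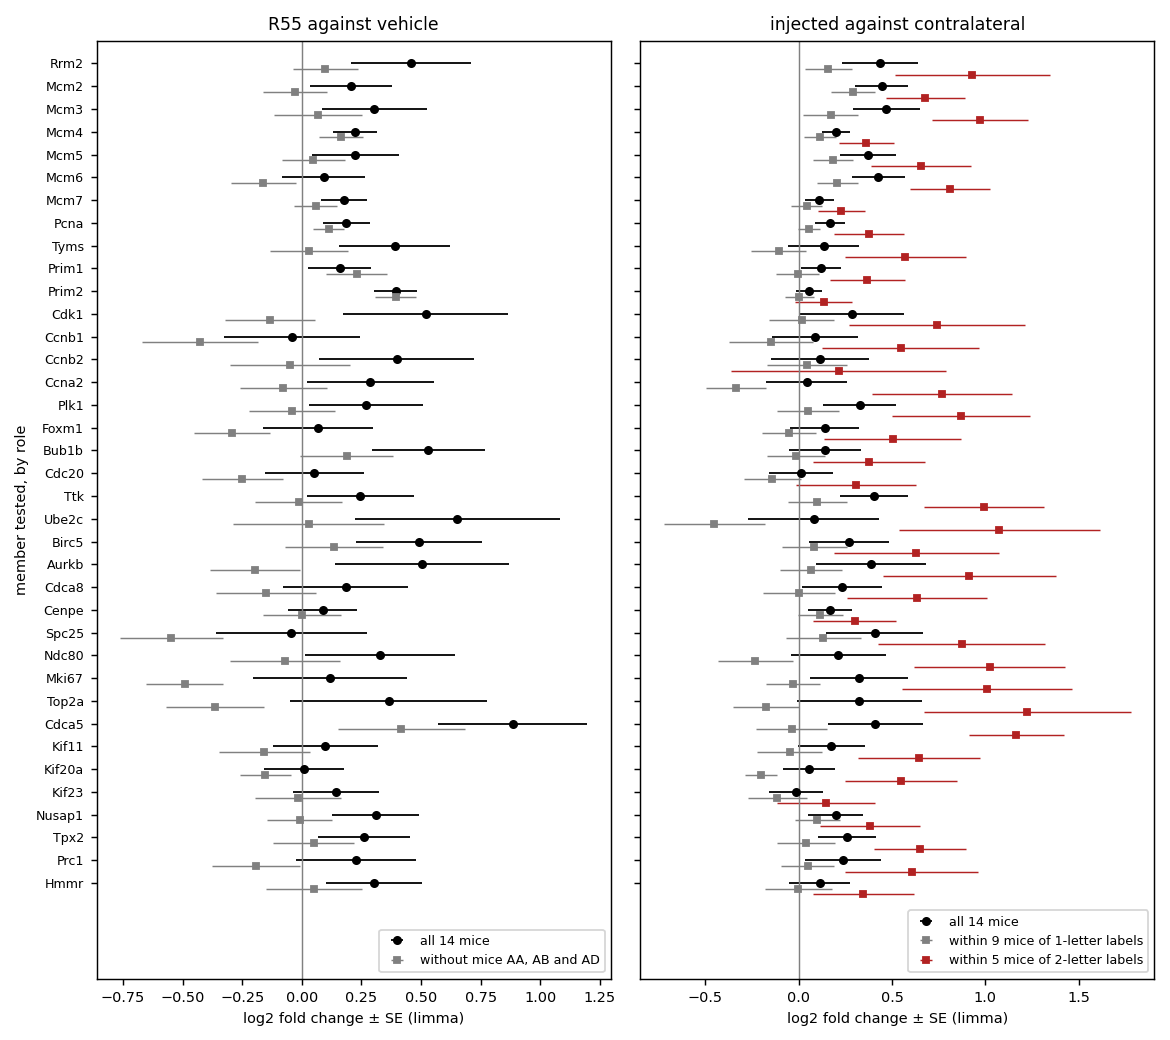
Log2 fold change with its SE (limma) for the 37 tested members, by role from top to bottom. The left panel shows R55 against vehicle in all mice and without AA, AB and AD, where Prim2 stays near 0.39, and the right panel shows injected against contralateral in all mice, in the 9 mice of 1-letter labels and in the 5 mice of 2-letter labels, where the 2-letter values lie to the right.

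The drugs were also set against vehicle by hemisphere. In the injected hemisphere R55 against vehicle called no member (0.0% of all tested genes called, limma), and at an unadjusted p under 0.05 the members Prim2, Birc5 and Cdca5 were higher, 3 of 37 against 0.549% of all tested genes, while voom gave 1. Birc5, the survivin subunit of the passenger complex, had a log2 fold change of 0.80 (SE 0.379, adjusted p = 1.0). The count at that p was 1 with AA, AB, J, K or M left out and 5 with AD or Q left out. The median was 0.34, and it was -0.13 within 1-letter mice, where no member was higher and 4 were lower, against 0.716% and 1.41% of all tested genes. In the contralateral hemisphere no member was called (0.0119% of all tested genes, limma), Prim2 alone was higher at an unadjusted p under 0.05 with a log2 fold change of 0.45 (SE 0.125, adjusted p = 0.399), against 5.99% of all tested genes higher, voom gave 3, and the median was 0.18. R33 against vehicle called no member in either hemisphere (0.0% of all tested genes), with Kif23 at -0.51 (SE 0.246) on the injected side and Prim2 at 0.33 (SE 0.132) contralaterally as the single members under an unadjusted p of 0.05, against 0.871% of all tested genes lower and 1.71% higher, and voom gave 1 in each. Tests of whether the effect of R55 or of R33 differed between hemispheres called no member (0.0%, limma), with 0 under an unadjusted p of 0.05 in each and 0 with voom. Injected against contralateral called no member within vehicle, R33 or R55 mice (0.0%), with 0, 2 and 0 under an unadjusted p of 0.05 and 0, 1 and 0 with voom. The 2 were Mcm6 and Mcm2, both higher on the injected side, against 1.27% of all tested genes. With the mouse as a block the counts were 0, 2 and 3, all higher on the injected side, against 1.81%, 3.62% and 3.81% of all tested genes, and none was called. Leaving out 1 mouse gave 1 to 3 in R33 mice and 0 to 4 in R55 mice, where the 4 came without P.

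Beyond the 40, 140 other genes of the cell cycle were looked at in 6 lists, of which 131 were tested. None was called when R55 or R33 was set against vehicle, when the drugs were compared with each other, or between hemispheres (limma), and at an unadjusted p under 0.05 the counts in that order were 17, 5, 6 and 13 higher and 0, 0, 0 and 2 lower. Over all tested genes 4.27%, 3.07%, 0.913% and 1.66% were higher and 3.65%, 2.46%, 1.07% and 2.43% lower, and the counts of single lists stand beside the same shares. Among G1 cyclins and their kinases 0 of 8 had an unadjusted p under 0.05 in R55 or R33 against vehicle or between hemispheres, with Cdk4, the D cyclin kinase, at a log2 fold change of 0.15 (SE 0.0922) for R55 over vehicle, and Ccnd1 at 0.17 (SE 0.1), Ccnd2 at 0.05 (SE 0.113) and Ccnd3 at 0.11 (SE 0.0903) for injected over contralateral. Among 12 inhibitors and antiproliferative genes 4 were higher with R55 than with vehicle: Btg2 by 0.51 (SE 0.215), Cdkn2c by 0.425 (SE 0.193), Gadd45a by 0.36 (SE 0.155) and Gadd45b by 0.23 (SE 0.105), all with a limma adjusted p of 0.606 to 0.619. Btg2, an antiproliferative immediate early gene, differed by 0.69 (SE 0.209, adjusted p = 1.0) between R55 and R33.

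Of the 17 tested genes of the E2F, pocket protein and DREAM list 3 were higher with R55: E2f1 by 0.40 (SE 0.186), E2f5 by 0.22 (SE 0.101) and E2f6 by 0.14 (SE 0.0524, adjusted p = 0.584), and E2f6 was also 0.15 higher (SE 0.0537) with R33. Lin9, a MuvB subunit, was 0.18 higher (SE 0.0762) on the injected side. Of 36 genes of replication licensing and the fork, 6 were higher with R55 and 7 on the injected side, among them Rpa2, which coats single-stranded DNA, by 0.28 (SE 0.0882, adjusted p = 0.564) with R55, and Cdt1 and Cdc45, which load and activate the Mcm2-7 helicase, by 0.45 (SE 0.15) and 0.34 (SE 0.116) on the injected side, with Rfc1, the large clamp loader subunit, at 0.10 (SE 0.0392). In the nucleotide supply list 1 of 6, Rrm1, the partner of Rrm2, was higher on the injected side, by 0.22 (SE 0.0779), with Tk1 at 0.63 (SE 0.387) and Dut at 0.05 (SE 0.0624). Of the 52 tested genes of the other mitotic list 4 were higher with R55 and 4 on the injected side, and 2 were lower there. Kif18a, a kinesin of chromosome alignment, was 0.46 higher (SE 0.134, adjusted p = 1.0) on the injected side, Wee1, the kinase that restrains Cdk1, 0.16 higher there (SE 0.0679) and 0.24 higher with R55 (SE 0.0835), and Cdc25b, the phosphatase that opposes it, was at -0.20 (SE 0.0778), while Cdkn3 differed by 0.445 (SE 0.169) between R55 and R33. These were differences at an unadjusted p under 0.05 except for the G1 genes, Tk1 and Dut.

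Markers of other cells were summed in each library, and their part in the result was not tested. The sum in AA injected lay above all of the other 24 libraries for microglia, that in AA and in AD injected for monocytes and neutrophils and for astrocytes, and that in AD injected for fibroblasts, inhibitory neurons and the red blood cell marker, while AB injected did so for no list. The 8 microglia markers summed to 932 FPKM in AA injected, 661 in AB injected and 670 in AD injected, against 300 to 690 FPKM in the other 24 libraries. By group their range was 381 to 558 FPKM in vehicle contralateral, 392 to 628 in vehicle injected, 332 to 520 in R33 contralateral, 373 to 690 in R33 injected, 341 to 640 in R55 contralateral and 300 to 932 FPKM in R55 injected libraries. The 8 monocyte and neutrophil markers summed to 12.8, 7.75 and 15.3 FPKM in AA, AB and AD injected, against 2.08 to 9.63 in the other 24, with AA contralateral at 9.63 FPKM. Their range was 2.83 to 5.54 FPKM in vehicle contralateral, 2.08 to 9.17 in vehicle injected, 2.58 to 6.22 in R33 contralateral, 2.71 to 15.3 in R33 injected, 4.36 to 9.63 in R55 contralateral and 4.3 to 12.8 FPKM in R55 injected libraries. All 8 genes of each list had a mean of at least 0.1 FPKM, and Ly6c2, Plac8 and Retnlg were at 0 in their lowest library. The 6 fibroblast and meningeal markers summed to 23.6, 34.0 and 54.7 FPKM in AA, AB and AD injected, against 11.4 to 46.3 FPKM in the other 24. Among them Pdgfrb, at 3.45 FPKM, was at its lowest of all libraries in AD injected, while the others lay above their means there.

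The 6 astrocyte markers summed to 1410, 1110 and 1480 FPKM in AA, AB and AD injected against 512 to 1390 in the other 24 libraries, the 6 oligodendrocyte precursor markers to 169, 119 and 122 FPKM against 85.1 to 186, and the 6 endothelial markers to 37.0, 51.1 and 49.7 FPKM against 34.1 to 132. Excitatory neuron markers summed to 1440, 1750 and 1520 FPKM against 1220 to 2090, inhibitory neuron markers to 642, 522 and 737 FPKM against 388 to 693, and immature neuron markers to 12.2, 10.7 and 10.7 FPKM against 7.81 to 14.8. Of the inhibitory markers in AD injected, Pvalb and Sst stood at 134 and 423 FPKM, above their means of 70.5 and 301. Vip at 34.4 and Gad1 at 86.8 FPKM were also above their means of 29.8 and 84.7. Gad2 at 23.1 and Slc32a1 at 35.7 FPKM lay under theirs of 29.1 and 36.3. Of the 5 red blood cell markers 4 were at 0 in every library, and the remaining one gave 2.99, 4.03 and 8.17 FPKM against 1.0 to 5.71. No marker of any list was called in the comparisons of treatments or hemispheres (limma).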

How the data were processed

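RNA of 1 cortical block per hemisphere was sequenced from stranded poly(A) libraries, and the authors aligned paired reads to GRCm39 with HISAT2. The counting tool and annotation are not given in the sources used here. The authors deposited FPKM values per gene, from which whole fragments were recovered (100.0% of values whole within 0.01), with 15932196 to 38077026 fragments per library. Of 32 libraries 27 had labels that gave their group, and 5 were not used. The authors' own DESeq2 comparisons were not used here.

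The 16760 genes averaging 0.1 FPKM or more were tested as log2(FPKM + 0.1) with limma 3.58.1 in R 4.3.3 (trend, Benjamini-Hochberg adjustment), with treatment and hemisphere as factors, or with the 6 groups for comparisons within a hemisphere or treatment. A fold change on this scale understates that of genes under 1 FPKM. Libraries of one mouse are not independent: deviations from group means correlated at 0.252 on average within the 13 mice (0.0188 to 0.419) and at -0.0682 between mice. Mouse was therefore also fitted as a block for differences between hemispheres, and as a correlation within mice for differences between treatments.

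The members and lists were chosen with earlier results of these data known. Values in every library are given for members with a mean of at least 1 FPKM and for up to 5 members with the smallest unadjusted p under 0.05 in each of the 4 main comparisons, and up to 4 genes are named from each other list by the same p, except that 1 gene chosen by this rule is not reported here. Scripts were tested on simulated data. Alternatives were limma voom on the recovered fragments, other pseudocounts, filters and scalings, 1 value per mouse, each mouse left out, and each series of labels alone.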

Additional observations from a re-analysis of the deposited data

Results flagged for a closer look

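In 72 sets of 4 or 5 libraries of one treatment and hemisphere, for the 12 members chosen by rule, 4 sets had 1 library far from the others, where chance alone gives about 1 in 20. Rrm2 stood at 3.18 FPKM in AD injected, against 0.863 to 1.01 FPKM in the other injected R33 libraries, and Pcna at 40.5 FPKM in the same library, against 22.5 to 25.3 FPKM. Mcm7 stood at 2.96 FPKM in the contralateral hemisphere of the vehicle mouse L, against 4.1 to 4.32 FPKM in the other contralateral vehicle libraries. Prim1 stood at 4.32 FPKM in the contralateral hemisphere of the vehicle mouse J, against 2.46 to 2.69 FPKM.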

How the results depend on the processing

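Of 279 counts of members called under alternatives 277 were 0. The exceptions were 1 member each, Prim2, for R55 against vehicle over both hemispheres and in the contralateral hemisphere, both without mouse AD. Of 1728 alternative values of single members and medians 1625 had the direction of the reported value. The hemispheres of a mouse are not independent, so the replicate block bears on the unadjusted counts. With the correlation within mice modelled, 2 members had an unadjusted p under 0.05 for R55 against vehicle, 0 for R33 against vehicle and 0 for R55 against R33. With the mouse as a block, 27 members had one for the difference between label series. R55 against vehicle also gave 2 with 1 value per mouse and with pseudocount 1 and a filter at 1 FPKM. R33 against vehicle gave 0 with 1 value per mouse, with the length trend removed, with voom and with only the compared treatments, and 2 within 1-letter mice, both lower, with a median of -0.11. R55 against R33 gave 2 with a filter at 10 fragments, with voom, with median-of-ratios scaling and with no filter. Injected against contralateral gave 2 within 1-letter mice and 2 without AA, AB and AD, with or without the block, and its median was 0.633 within 2-letter mice. Leaving out 1 mouse gave 2 (AA) to 11 (P) for R55 against vehicle, 0 to 2 for R33 against vehicle, 0 to 9 (AD) for R55 against R33, 5 to 9 for injected against contralateral and 6 (AD) to 20 (AE) for the series, and 0 to 1 called for R55 against vehicle, over both hemispheres and contralaterally, with 0 to 0 called in each other comparison. The cause of these shifts was not tested. Depth limits the mitotic genes most, since 30 members lie under 1 FPKM.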
